A study of Mus musculus with 5 samples.

Results

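The genes described are 4 aldehyde dehydrogenases (Aldh1a1, Aldh2, Aldh3b1 and Aldh9a1) and 5 glutathione transferases (Gstm1, Gstp1, Mgst1, Mgst2 and Mgst3), enzymes that can detoxify products of cyclophosphamide (CTX). They were taken by their symbols, and all 9 were among the 31053 genes of each library. Cyclophosphamide is a prodrug that liver enzymes activate. Its intermediate aldophosphamide decays into phosphoramide mustard, which alkylates DNA, and into acrolein, which reacts with thiols. Aldehyde dehydrogenases, Aldh1a1 above all, can oxidise aldophosphamide to an inactive acid, and glutathione transferases join glutathione to reactive compounds such as acrolein. Blood stem cells have long been known for high aldehyde dehydrogenase activity.

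RNA of single cells was counted as unique molecular identifiers (UMIs, 1 per captured molecule) in 5 libraries from BALB/c mice 4 to 8 weeks old. Whole bone marrow (BM) came from untreated mice (naive) and from mice at day 2 and day 7 after 150 mg/kg CTX by intraperitoneal injection (D2 CTX, D7 CTX). Equal numbers of cells from 3 mice were pooled for each, after removal of dead cells and lysis of red cells. The other libraries held CD11b+Ly6Chi monocytes sorted from naive mice and from mice given the same dose, at day 7 by the study's methods. Each group was thus 1 library, so no difference between groups can be set against a spread between animals or libraries, and no test between groups was possible. All intervals are 95% intervals that cover counting error only.

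The libraries held 2223 to 8605 cell barcodes and 22694817 to 68459527 UMIs, with 2 to 16 barcodes shared between any pair. After the filter 7104 naive, 6126 D2 CTX, 8290 D7 CTX, 1891 sorted naive and 2564 sorted CTX cells were kept. Whole BM cells fell into 28 clusters, of which 24 were named by marker genes and formed 18 classes. A class name means cells like that type by these markers. Levels are given on the usual CPM scale, the UMIs of a gene relative to all UMIs of the cells named. Since 3′ ends were counted, levels were compared between cells and libraries and not between genes. Shares of a class are shares of kept cells, so they do not say how many cells of a mouse survived. The D2 CTX library and both sorted libraries stood apart from naive and D7 CTX in Gstp1, as described below. The D2 CTX library also differed in depth by class, with median UMIs per cell of 40708.5 in granulocyte-monocyte progenitors (GMP) against 11757.5 in naive, and of 2745 in erythroblasts against 14646.

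Aldh1a1, a cytosolic enzyme that oxidises retinal and aldophosphamide, was in naive BM an erythroblast transcript. Its level in erythroblasts was 144 CPM (interval 136 to 153), and these cells held 1137 of its 1189 UMIs. Cells of the stem and progenitor class followed at 18.3 CPM (12.8 to 25.5), 2.98 log2 units lower (interval of the difference 2.50 to 3.51). The other named classes gave at most 2.09 CPM, from 4 UMIs or fewer each, and their order cannot be told from counting error. Within erythroblasts the level was 126 CPM at D2 CTX (105 to 151) and 94.5 CPM at D7 CTX (68.4 to 127), and in stem and progenitor cells it was 23.9 and 34.5 CPM. The erythroblast D7 CTX value rested on 21 cells. No UMI of Aldh1a1 was found in either sorted library, which allows a level of up to 0.135 CPM in sorted naive and 0.105 CPM in sorted CTX monocytes.

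Mgst3, a membrane enzyme with glutathione transferase and peroxidase activity, had its highest naive level in the same class. Erythroblasts held 6052 of 6611 UMIs at 769 CPM (750 to 789), and macrophage-dendritic progenitors (MDP) came next at 37.4 CPM, 4.36 log2 units lower (4.07 to 4.67). MDP, monocytes (32.1 CPM), pro-B cells (28.6 CPM) and stem and progenitor cells (23.0 CPM) did not differ between neighbours in that order. Immature and mature neutrophils held 1.77 CPM or less, and the 67 macrophages gave no UMI, which at their depth allows up to 27.5 CPM. Across the 18 naive classes the levels of Mgst3 and Aldh1a1 had a Pearson r of 0.84, over points that share 1 library.

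Both genes were lower in the sum of all cells after CTX, a sum in which fewer cells of a class and fewer molecules per cell are mixed. Mgst3 went from 143.5 CPM in naive to 11.8 CPM at D2 CTX and 11.5 CPM at D7 CTX, and Aldh1a1 from 25.8 to 6.60 and 1.001 CPM. Erythroblasts went from 451 naive cells to 77 and 21, a log2 change in share of -2.34 at D2 CTX (-2.70 to -1.99). With erythroblasts left out, the log2 ratio of Mgst3 at D2 CTX was -0.86 in place of -3.61, and that of Aldh1a1 was 1.18 in place of -1.97. The direction of Aldh1a1 in the summed cells at D2 CTX thus depended on erythroblasts. At D7 CTX the ratio without erythroblasts was -1.88 in place of -4.69 for Aldh1a1, and -1.02 in place of -3.64 for Mgst3.

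Within erythroblasts the genes parted at D2 CTX. Mgst3 was at 139 CPM, 2.47 log2 units below naive (2.22 to 2.73), and at 642 CPM at D7 CTX, while the interval of the Aldh1a1 ratio at D2 CTX held 0 (-0.48 to 0.08). The class had a different make-up in the libraries. Cluster 15, which held more of Klf1, a factor of red-cell genes, gave 415 of the naive and 17 of the D2 CTX cells, and cluster 25 gave 36 and 60. Cluster 25 also held S100a8, a neutrophil transcript, at 67255 CPM in naive and 70470 CPM at D2 CTX, against 3716 and 1189 CPM in cluster 15. Within cluster 15 Mgst3 was at 781 CPM in naive, 164 CPM at D2 CTX and 671 CPM at D7 CTX, so that it was lower at D2 CTX there too. Aldh1a1 was at 147, 132 and 100 CPM in that cluster. Hba-a1, an alpha globin, was at 28061 CPM in naive and 4293 CPM at D2 CTX there. The part of these cell differences in the Mgst3 value was not tested.

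The promoters of these genes are shown because both transcripts had their highest naive level in erythroblasts, whose genes often carry sites of GATA factors. Aldh1a1 lies on chromosome 19 (GRCm38, 20492715 to 20643465, plus strand, 16 exons) and overlaps C730002L08Rik and Gm6684 on the other strand. Mgst3 lies on chromosome 1 (167371966 to 167393841, minus strand, 6 exons), and its 3′ end is 3433 bases from that of Aldh9a1. Each line gives the 250 bases before a RefSeq transcript start (GRCm38.p6, 5′ to 3′), the second of 2 starts for Aldh1a1 at chr19:20601718-20601967 and that of Mgst3 at chr1:167393842-167394091. Capitals mark the letters AGATAA, a core of GATA sites.
Aldh1a1: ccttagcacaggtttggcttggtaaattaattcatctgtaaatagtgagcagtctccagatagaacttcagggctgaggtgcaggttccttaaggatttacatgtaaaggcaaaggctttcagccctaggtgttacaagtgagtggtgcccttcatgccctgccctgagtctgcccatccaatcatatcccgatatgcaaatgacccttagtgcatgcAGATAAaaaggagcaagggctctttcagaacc
Mgst3: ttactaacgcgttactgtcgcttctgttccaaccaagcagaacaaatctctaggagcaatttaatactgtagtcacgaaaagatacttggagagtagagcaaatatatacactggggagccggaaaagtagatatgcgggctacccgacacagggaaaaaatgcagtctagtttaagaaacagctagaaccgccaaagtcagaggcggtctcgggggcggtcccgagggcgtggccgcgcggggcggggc

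The Aldh1a1 window shown held AGATAA once, 32 bases before the start. The window of the first Aldh1a1 start and the Mgst3 window did not hold it on either strand. Of all 32851 windows of this length 9.99% held it on 1 strand or the other. RefSeq windows were found for 8 of the 9 genes, 11 windows in all, and Aldh9a1 was the other gene with a match. The letters TGACNNNGC, the core of the antioxidant response element through which Nrf2 acts, were in 10.2% of all windows and in 1 window each of Aldh9a1 and Mgst1. These are matches of letters and not mapped sites.

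**Figure D1:**
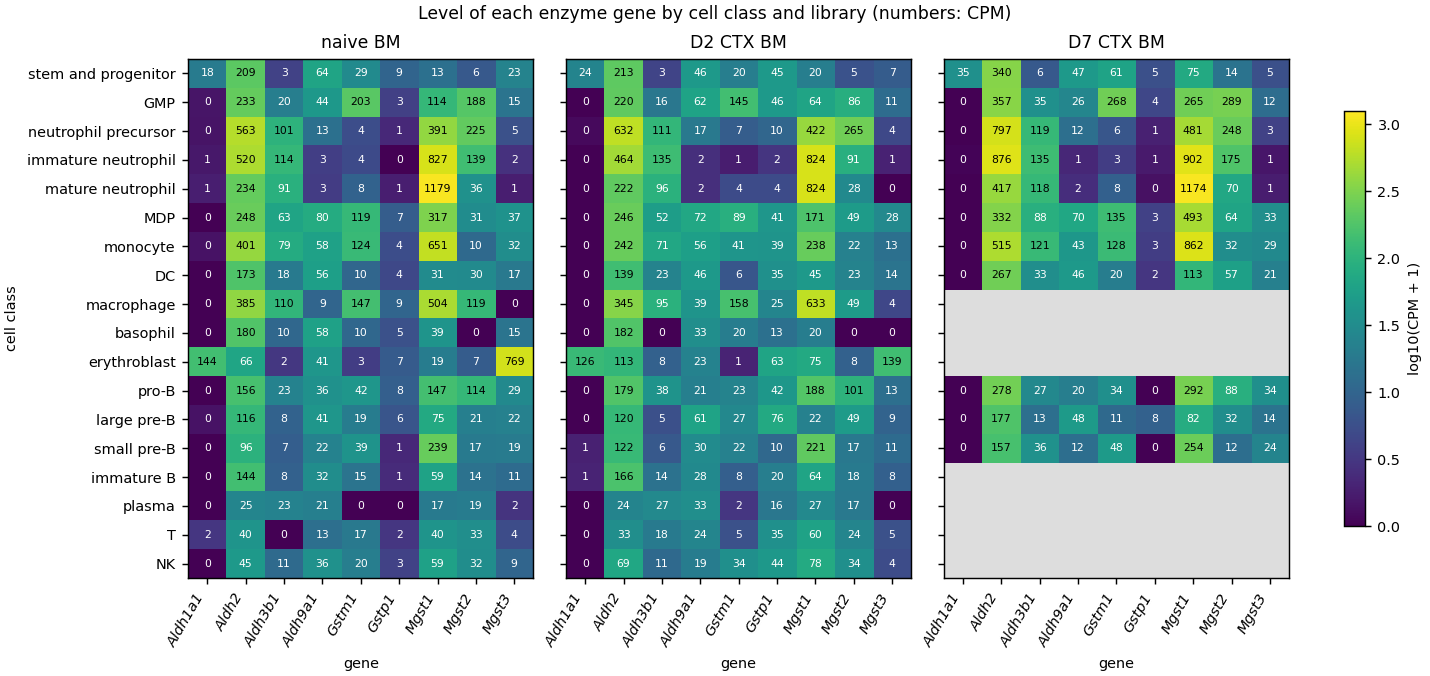
Level of each of the 9 genes (columns) in each of 18 classes (rows) of naive, D2 CTX and D7 CTX BM, with the number in each field in CPM, the colour as log10(CPM + 1), and classes under 30 cells in grey. Aldh1a1 and Mgst3 were highest in naive erythroblasts (144 and 769 CPM), Aldh2, Aldh3b1 and Mgst1 in neutrophils, monocytes and macrophages, and Gstm1 in GMP, macrophages, monocytes and MDP.

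Aldh2, the mitochondrial enzyme best known for oxidising acetaldehyde, was highest in naive neutrophil precursors and immature neutrophils, and other myeloid classes held it too. Naive neutrophil precursors were at 563 CPM (548 to 580) and immature neutrophils at 520 CPM (501 to 540), and monocytes (401 CPM) and macrophages (385 CPM) followed without differing from each other. It was lower in MDP (248 CPM), mature neutrophils (234 CPM), GMP (233 CPM) and stem and progenitor cells (209 CPM). Levels were lowest in T cells (39.8 CPM) and plasma cells (24.8 CPM). Aldh2 lies on chromosome 5 (121566027 to 121593824, minus strand, 13 exons).

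At D7 CTX the level of Aldh2 was above naive in 10 of the 11 classes with at least 30 cells in both libraries, by intervals that exclude 0. It reached 797 CPM in neutrophil precursors, 876 CPM in immature neutrophils, 417 CPM in mature neutrophils and 515 CPM in monocytes. The log2 ratios over the classes ran from 0.36 in monocytes to 0.83 in pro-B cells with a median of 0.63, and small pre-B cells, 39 at D7 CTX, were the class whose interval held 0. In pro-B cells the neutrophil transcript S100a8 was at 3.35% of its neutrophil level in naive and at 14.7% at D7 CTX. These shares were 2.36% and 6.92% in large pre-B cells, and 1.19% and 1.29% in small pre-B cells. The part of such background in the Aldh2 ratios was not tested. In the sum of all cells the ratio was 1.28 (1.26 to 1.31), in a library where neutrophil precursors made up 34.3% of cells against 13.05% in naive. At D2 CTX no such shift was seen over classes, with 3 higher, 3 lower and 12 whose interval held 0. Among precursors at D2 CTX the cycling clusters were higher (649 against 506 CPM in naive) and the non-cycling cluster lower (563 against 704 CPM), so that the direction for the whole precursor class depends on their mix.

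Aldh3b1, which oxidises aldehydes derived from lipids, had a like spread over classes. In naive BM immature neutrophils (114 CPM), macrophages (110 CPM), neutrophil precursors (101 CPM), mature neutrophils (91.1 CPM) and monocytes (79.5 CPM) did not differ between neighbours. Immature neutrophils (105 to 123) and neutrophil precursors (94.3 to 108) lay above monocytes (68.4 to 91.9) by intervals that do not overlap. Erythroblasts were at 2.16 CPM and stem and progenitor cells at 3.14 CPM. At D7 CTX it was above naive in 7 of 11 classes, among them monocytes at 121 CPM, a log2 ratio of 0.61 (0.36 to 0.87). Aldh2 and Aldh3b1 had an r of 0.74 over the naive classes, and Aldh3b1 and Mgst1 an r of 0.85.

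Aldh9a1, which acts in the making of carnitine, had another order. Its naive level was 80.1 CPM in MDP, 64.4 CPM in stem and progenitor cells and 57.8 CPM in monocytes, and 2.75 and 2.51 CPM in immature and mature neutrophils. In GMP it was 44.1 CPM in naive, 62.2 CPM at D2 CTX and 25.8 CPM at D7 CTX, so that D2 CTX lay above and D7 CTX below naive by intervals that exclude 0. With no integration of libraries the log2 ratio at D2 CTX was -0.10 in place of 0.50, so its direction depended on the clustering. The depth of the D2 CTX GMP differed as well, and its part was not tested. Over the classes 2 were higher and 2 lower at D2 CTX, and 3 were lower and none higher at D7 CTX.

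Mgst1, a membrane enzyme that conjugates glutathione and reduces lipid peroxides, rose along the neutrophil line in naive BM, from 114 CPM in GMP to 390.5 CPM in precursors, 827 CPM in immature and 1179 CPM in mature neutrophils. Monocytes (651 CPM) and macrophages (504 CPM) stood between. Mature neutrophils were at 824 CPM at D2 CTX, 0.52 log2 units below naive (0.40 to 0.63), and at 1174 CPM at D7 CTX. Immature neutrophils stayed between 824 and 902 CPM in the 3 libraries. GMP were at 64.4 CPM at D2 CTX and 265 CPM at D7 CTX. Their log2 ratio at D2 CTX was -0.82, and -0.06 when cells were clustered with no integration of libraries, where 23 D2 CTX cells were in the class.

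Small pre-B cells held Mgst1 at 239 CPM in naive, 221 CPM at D2 CTX and 254 CPM at D7 CTX. That is 26.7% of the level in naive immature and mature neutrophils together, while the neutrophil transcript S100a8 was in small pre-B cells at 1.19% of its neutrophil level. Immature B cells, at 59.4 CPM, held 6.65% of the neutrophil level of Mgst1 and 1.14% of that of S100a8. In naive T cells the shares were 4.45% and 5.204%, and at D2 CTX 7.31% and 7.36%. The part of background in the Mgst1 UMIs of T cells was not tested.

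Mgst2, which can join glutathione to leukotriene A, was highest in early cells of the neutrophil line. Naive precursors were at 225 CPM (215 to 236), GMP at 188 CPM (170 to 208), immature neutrophils at 139 CPM (128 to 149) and mature neutrophils at 36.0 CPM. Pro-B cells were at 114 CPM (87.2 to 147) and small pre-B cells at 17.4 CPM, and for Mgst1 the order of these 2 classes was the reverse (147 and 239 CPM). GMP were at 86.0 CPM at D2 CTX and at 289 CPM at D7 CTX. The D2 CTX value did not hold with no integration either, where the log2 ratio in GMP was 0.11 in place of -1.13. Monocytes were at 10.4, 22.0 and 32.5 CPM in naive, D2 CTX and D7 CTX, the last 1.64 log2 units above naive (0.9995 to 2.33). With likely doublets left out this ratio was 1.26. The neutrophil transcripts Ngp (1134 and 3000 CPM) and Camp (1348 and 3183 CPM) were also higher in D7 CTX than in naive monocytes. Their part in the Mgst2 level was not tested.

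Gstm1, a cytosolic transferase of the mu class, was found in progenitors and monocytes and hardly in neutrophils. Naive levels were 203 CPM in GMP, 147 CPM in macrophages, 124 CPM in monocytes and 119 CPM in MDP, which did not differ between neighbours, and 8.36 CPM or less in the neutrophil precursor, immature and mature classes. GMP (184 to 223) lay above monocytes (110 to 139) and MDP (106 to 133) by intervals that do not overlap. GMP were at 144 CPM at D2 CTX and 268 CPM at D7 CTX. MDP were at 89.0 and 135 CPM. Over the classes 7 of 18 were lower and 1 higher at D2 CTX. Gstm1 counts are uncertain, since 15.6% of the 60-base stretches of its transcripts also occur in Gstm2-ps1, Gstm3 or other genes. Reads from such stretches cannot be placed and are not counted.

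**Figure D2:**
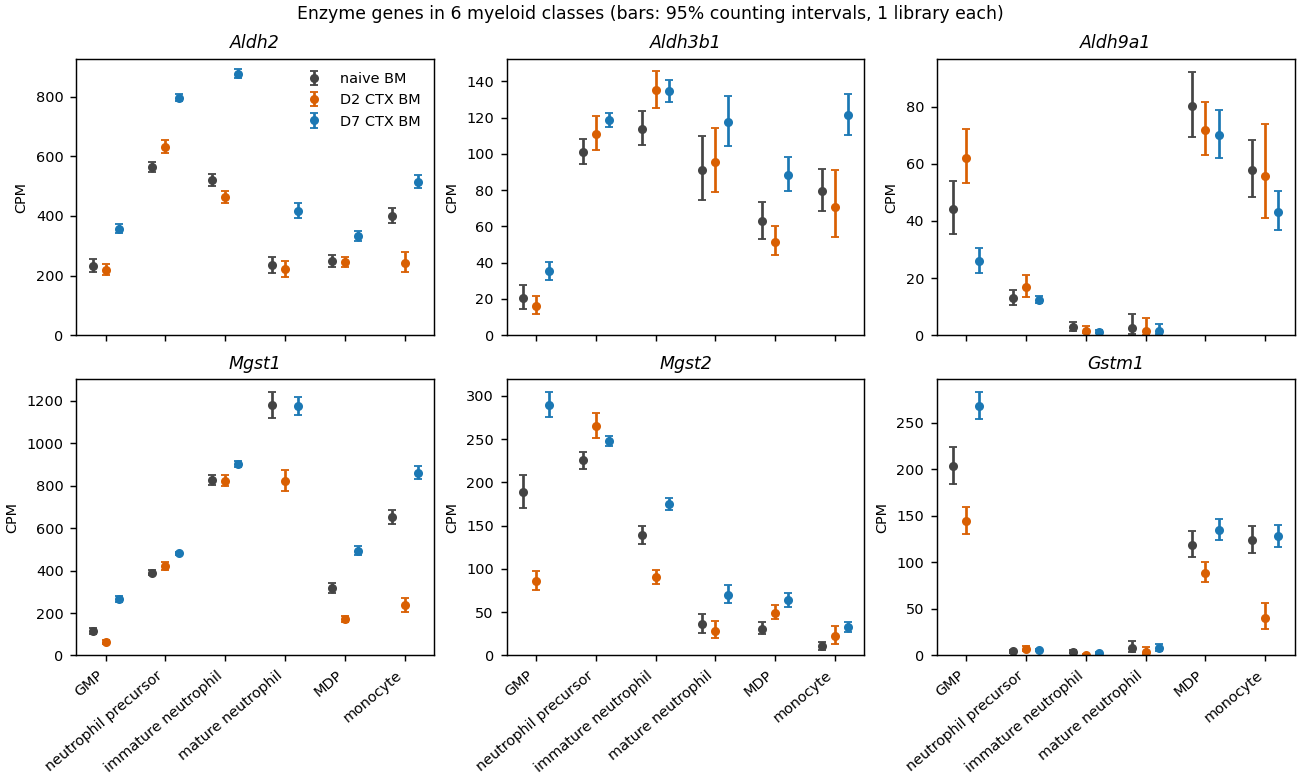
Levels (CPM, linear axis from 0) of 6 of the genes in 6 myeloid classes, with points for the naive, D2 CTX and D7 CTX libraries and bars for 95% counting intervals. Aldh2 was highest at D7 CTX in each of the 6 classes, Mgst1 rose from GMP to mature neutrophils in naive BM (114 to 1179 CPM), and Gstm1 stayed under 10 CPM in the neutrophil classes.

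The number of genes that moved was read against all genes. A gene was counted where it had at least 200 UMIs over the 2 libraries and 20 CPM in 1 of them and was at least 1 log2 unit apart with 1 CPM added. In the sum of all cells at D2 CTX, 3 of the 9 members were past this limit (Gstp1 higher, Aldh1a1 and Mgst3 lower), where 8.62% of 6221 genes were. At D7 CTX, 6 of the 8 members that passed the filter were (Aldh2, Aldh3b1, Mgst1 and Mgst2 higher, Aldh1a1 and Mgst3 lower), where 23.7% of 5608 genes were and the median gene stood at -0.58. That median was 0.17 at D2 CTX.

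Within classes few members were past the limit. In GMP at D2 CTX it was Mgst2 of 5 members, against 16% of all genes, and at D7 CTX Mgst1 of 6, against 1.83%. In MDP none of 6 was at D2 CTX (4.86% of all genes) and Mgst2 of 7 at D7 CTX (1.19%), from 31.0 to 63.6 CPM. No member was past it in neutrophil precursors at D2 CTX or D7 CTX (6.18% and 0.802% of all genes), in immature neutrophils (4.98% and 1.56%) or in mature neutrophils (12.3% and 4.05%), with 3 or 4 members passing the filter in each. In B lineage cells Gstp1 was higher and Mgst3 lower of 7 members at D2 CTX (13.8% of all genes), and none of 6 at D7 CTX (4.02%). Naive B lineage cells were for the greater part large and small pre-B cells, while 1012 of the 1657 D2 CTX cells were immature B cells.

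In monocytes of whole BM 4 of the genes (Gstm1, Mgst1, Aldh2 and Mgst3) were below naive at D2 CTX by intervals that exclude 0. Gstm1 and Mgst1 were past the limit there, 2 of the 4 members that passed, where 6.39% of all genes were past it, and at D7 CTX none of 5 was, where 0.951% were. Gstm1 was at 124, 40.6 and 128 CPM in naive, D2 CTX and D7 CTX, which puts D2 CTX 1.61 log2 units below naive (1.10 to 2.16). Mgst1 was at 651, 238 and 862 CPM, with D2 CTX 1.45 log2 units below naive (1.24 to 1.67) and D7 CTX 0.41 above (0.32 to 0.50). Aldh2 was at 401, 242 and 515 CPM, with log2 ratios of -0.73 (-0.95 to -0.51) and 0.36 (0.25 to 0.47). Mgst3, which did not pass the filter, was at 32.1, 12.8 and 28.5 CPM. The D2 CTX levels of Gstm1, Mgst1 and Aldh2 lay below both other libraries by counting intervals that do not overlap, while the D2 CTX intervals of Aldh3b1 (-0.61 to 0.26) and Aldh9a1 (-0.56 to 0.43) held 0.

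The order of Mgst1 in monocytes was the same at equal depth. With each cell thinned to 1000 UMIs, which left out 7, 8 and 2 shallower monocytes, a Mgst1 UMI was left in 45.6% of monocytes in naive BM, in 18.9% at D2 CTX and in 54.1% at D7 CTX, and 83.7%, 46.2% and 93.4% had one before thinning. Median UMIs per monocyte were 5577.5, 5362.5 and 6634. In B lineage cells thinned in the same way, 5, 5 and 3 left out, the shares were 12.6%, 9.81% and 11.7% (33.8%, 23.2% and 41.2% before), with median UMIs of 2811, 2531 and 7851. The monocyte shares lay above these in each library.

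The monocyte class held different cells at D2 CTX, 156 against 406 in naive. Ly6c2, the Ly6C of classical monocytes, was at 1223, 494 and 1037 CPM in naive, D2 CTX and D7 CTX. The summed level of 7 non-classical markers was 345, 775 and 243 CPM, that of 5 classical markers 4061, 3496 and 3890 CPM, and that of the 7 class markers 3528, 3596 and 3272 CPM. The summed level of 5 neutrophil transcripts was 11744, 20131 and 26114 CPM, most of it S100a8 (8861, 18048 and 19061 CPM). From naive to D2 CTX, Ltf was higher (273 and 401 CPM). Ngp (1134 and 987 CPM), Camp (1348 and 684 CPM) and Elane (129 and 10.4 CPM) were lower. The part of these markers in the levels of Gstm1, Mgst1 and Aldh2 was not tested.

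In sorted CD11b+Ly6Chi monocytes the levels of 6 of the genes were close in naive and CTX. No member of the 8 that passed the filter was past the limit, where 0.955% of 5549 genes were. Aldh2 was at 449 CPM in both libraries (log2 ratio interval -0.04 to 0.04), Mgst1 at 588 and 579 CPM, Gstm1 at 112 and 117 CPM, Aldh3b1 at 105 and 99.3 CPM, Aldh9a1 at 77.0 and 74.3 CPM, and Mgst3 at 42.01 and 45.0 CPM. The intervals of these 6 ratios lay within -0.16 and 0.22.

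Mgst2 and Gstp1 differed between the sorted libraries by less than the limit. Mgst2 was at 15.4 CPM in naive and 28.7 CPM in CTX monocytes, a log2 ratio of 0.89 (0.71 to 1.08), and its level was uneven among the 13 sorted clusters. The cluster with markers of neutrophil-like monocytes (NeuMo-like) had 95.7 CPM in 6 naive cells and 215 CPM in 52 CTX cells, and the cluster rich in neutrophil granule transcripts 155 CPM in 29 and 187 CPM in 60 cells. No other cluster was above 45.4 CPM. Without the NeuMo-like cluster the log2 ratio was 0.62, and without both clusters it was 0.56 (13.7 and 20.2 CPM). In the NeuMo-like cluster Mgst1 was at its lowest among the CTX clusters, with 191 CPM.

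**Figure D3:**
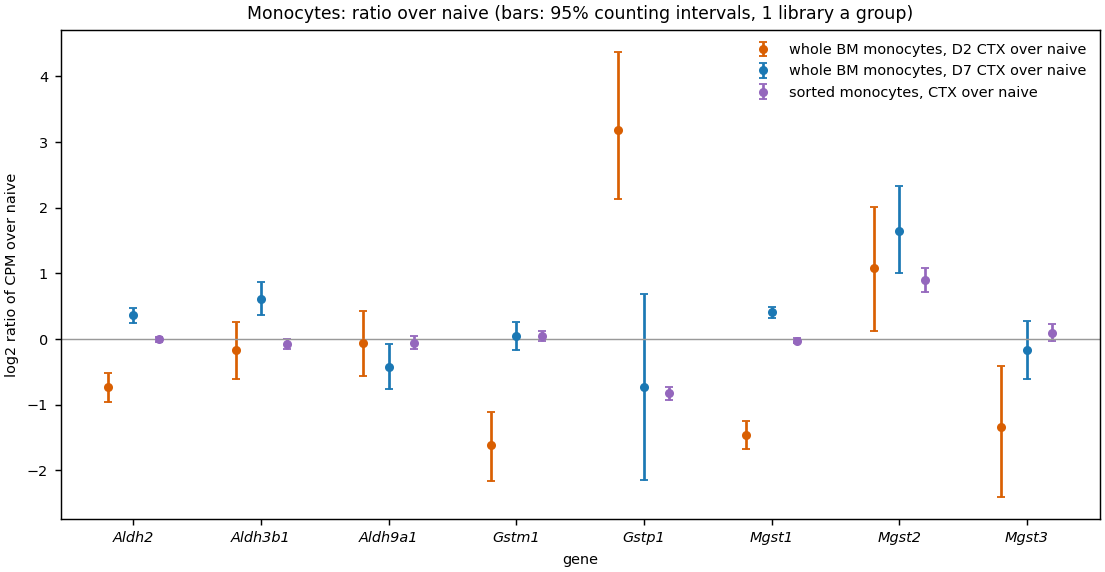
Log2 ratio of CPM over naive (vertical axis) for 8 of the genes in whole BM monocytes at D2 CTX and at D7 CTX and in sorted monocytes after CTX, with 95% counting intervals as bars and 1 library a group. At D2 CTX the intervals of Gstm1 (-1.61), Mgst1 (-1.45), Mgst3 (-1.33) and Aldh2 (-0.73) lay below 0 and those of Gstp1 (3.18) and Mgst2 (1.08) above, and in the sorted cells Gstp1 lay at -0.83 and Mgst2 at 0.89.

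Gstp1, the cytosolic transferase of the pi class, was low in naive and D7 CTX BM and higher at D2 CTX. All cells together gave 3.82 CPM in naive (176 UMIs), 27.1 CPM at D2 CTX (919 UMIs) and 1.63 CPM at D7 CTX (111 UMIs). The log2 ratio at D2 CTX was 2.83 (2.59 to 3.07). By class, Gstp1 was above naive with an interval that excludes 0 in 15 of 18 classes, and the ratios ran from 1.43 to 4.06 with a median of 3.101 where both libraries had UMIs. GMP went from 2.91 to 46.0 CPM, stem and progenitor cells from 8.89 to 44.8 CPM, large pre-B cells from 5.61 to 75.6 CPM, erythroblasts from 6.86 to 63.1 CPM and T cells from 2.09 to 35.0 CPM. Macrophages, basophils and mature neutrophils were the classes whose interval held 0. Neutrophils stayed low, with 9.61, 1.98 and 4.05 CPM in precursor, immature and mature cells at D2 CTX.

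The sorted libraries were high in Gstp1 also without CTX. Sorted naive monocytes were at 81.0 CPM (77.3 to 84.8) and sorted CTX monocytes at 45.7 CPM (43.3 to 48.2), 0.83 log2 units lower (0.72 to 0.93), and the CTX level was lower by an interval that excludes 0 in 9 of the 13 sorted clusters. The monocyte class of whole BM was at 4.34 CPM in naive, 39.4 CPM at D2 CTX and 2.62 CPM at D7 CTX. Sorted cells thus stood 4.22 log2 units above the whole BM class in naive (3.34 to 5.28) and 4.13 in CTX (3.24 to 5.19), where 9.92% and 8.62% of all genes were past the limit. Gstp1 was the member past it in both. The remaining members that passed the filter differed between sorted and whole BM monocytes by 0.78 log2 units or less in either direction.

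Other genes moved with Gstp1 over the libraries. In every one of the 15 classes outside the neutrophil line, 3 of 6221 genes were higher by 1 log2 unit or more at D2 CTX, namely Gstp1, Gm10076 and Gm10260. Gm10076 was at 66.0, 603 and 48.5 CPM in naive, D2 CTX and D7 CTX BM and at 1448 and 797 CPM in sorted naive and sorted CTX monocytes. Gm10260 was at 120, 448 and 88.6 CPM and at 1048 and 939 CPM. All 3 genes were thus higher in the D2 CTX and the sorted libraries than in the naive and D7 CTX libraries, whatever the treatment. What set these libraries apart was not tested, and with 1 library a group a library and its treatment cannot be told apart.

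Gstp1 lies on chromosome 19 (4035407 to 4037985, minus strand, 7 exons) beside close copies, and 31.9% of the 60-base stretches of its transcripts also occur in Gstp2, many of them in Gstp-ps too. Reads from such stretches cannot be placed, so its counts are uncertain. Gstp2 was at 0.174, 1.12 and 0.0147 CPM in naive, D2 CTX and D7 CTX, and Gstp3 at 5.86, 3.12 and 0.427 CPM. With the 3 genes summed, the log2 ratio at D2 CTX was 1.67. Gstp3 shared no such stretch with Gstp1 and was itself lower at D2 CTX, so this sum does not measure the unplaced reads.

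**Figure D4:**
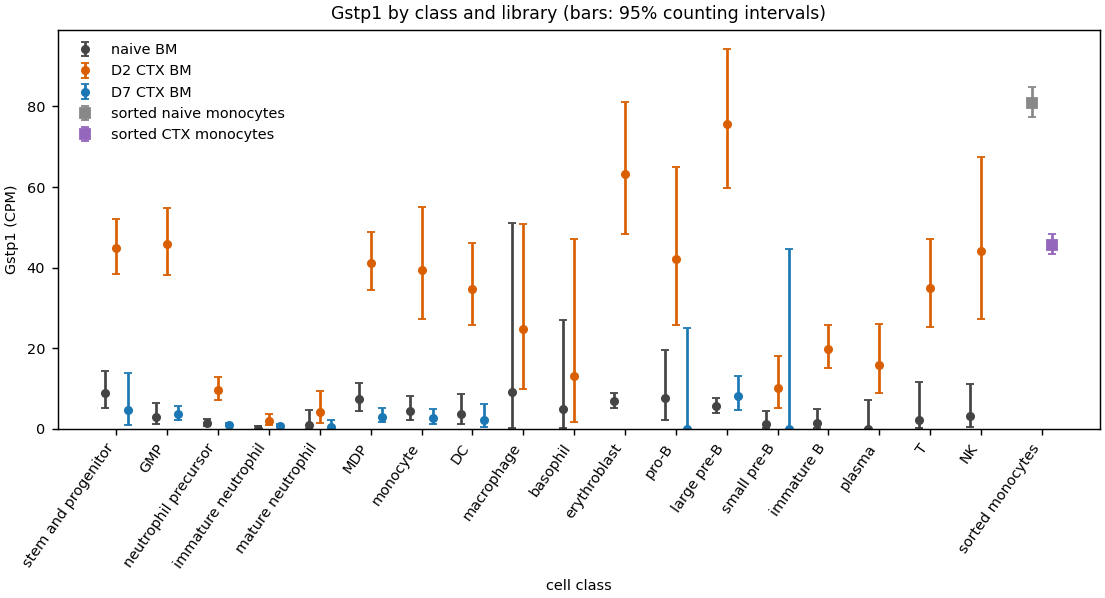
Level of Gstp1 (CPM, linear axis from 0) in each class of naive, D2 CTX and D7 CTX BM with at least 30 cells, and in the sorted monocyte libraries (squares), with 95% counting intervals as bars. D2 CTX lay above naive in all classes drawn, and the sorted libraries, at 81.0 and 45.7 CPM, lay above the naive whole BM monocytes at 4.34 CPM.

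Whether classes with a higher naive level of these enzymes kept a larger share of the marrow at day 2 was asked over the 18 classes. The share of kept cells at D2 CTX over naive ran from -3.41 log2 units in large pre-B cells (605 and 49 cells) and -2.34 in erythroblasts to 1.27 in macrophages (67 and 139 cells) and 1.55 in T cells (159 and 402 cells). Spearman's rho between this value and the summed naive level was -0.30 for the 4 aldehyde dehydrogenases and -0.29 for the 5 glutathione transferases. These are descriptions over classes that share libraries and depth, with no test. T cells, with 54.4 CPM of aldehyde dehydrogenases and 96.3 CPM of glutathione transferases, gained most, and monocytes, with 539 and 822 CPM, lost. Macrophages, with 504 and 779 CPM, gained too, and large pre-B cells, with 166 and 143 CPM, lost most.

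Among single members Mgst3 had a rho of -0.69, and 0.248% of 8857 genes had a lower one, while 5.18% of them were at or below -0.5 and 2.39% at or above 0.5. No member was at or above 0.5. Aldh9a1 was at -0.50, Aldh2 at -0.21, Aldh1a1 at -0.18, Gstm1 at -0.12, Mgst1 at -0.09, Aldh3b1 at 0.01 and Mgst2 at 0.13. Gstp1, which did not pass the filter, was at -0.20. The median over all genes was -0.03 with quartiles of -0.25 and 0.17.

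Levels of a cycling gene moved with the change in share as well. Mki67, a marker of cycling cells, had a rho of -0.53 with it, and was at 1841 CPM in erythroblasts and 1124 CPM in large pre-B cells, the classes that lost most. Its rho with the summed level of glutathione transferases was -0.19 and with that of aldehyde dehydrogenases -0.10. For Mgst3 alone that rho was not computed. Erythroblasts, highest in Mki67, were also highest in Mgst3 (769 CPM), while large pre-B cells held Mgst3 at 22.1 CPM. Among the 8 myeloid classes alone the rho of the glutathione transferases was 0.17, so its sign depended on which classes were taken.

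**Figure D5:**
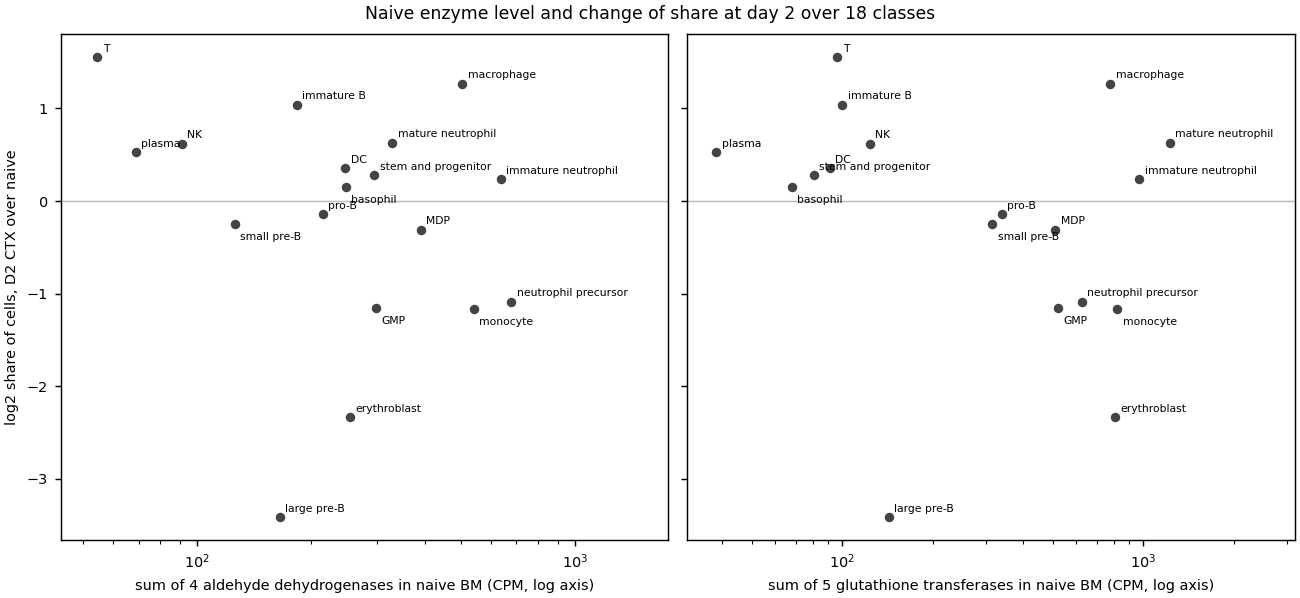
Log2 share of cells at D2 CTX over naive (vertical axis) against the summed naive level (CPM, log axis) of the 4 aldehyde dehydrogenases (left) and the 5 glutathione transferases (right), 1 point per class. T cells and macrophages, at 1.55 and 1.27, gained share, T cells with low and macrophages with high sums, and large pre-B cells and erythroblasts, at -3.41 and -2.34, lost it.

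The genes whose naive level over classes was most like a member's were named from 9501 genes by Pearson r of log2(CPM + 10) over 18 classes. For Aldh1a1 they were Pklr, a red-cell pyruvate kinase, Kel, a blood group protein, and Atp7b (0.998, 0.996 and 0.995). For Mgst3 they were Urod and Uros, enzymes of heme synthesis, and Gypc (0.93, 0.93 and 0.92). For Aldh2 they were Spi1, the myeloid factor PU.1, Ethe1 and Lamtor4 (0.88, 0.87 and 0.87), and for Aldh3b1 Ckap4, Slc31a2 and Abcd2 (0.92, 0.91 and 0.91). Aldh9a1 was most like Chchd5, Fut11 and Ppib (0.93, 0.93 and 0.92) and Gstm1 like Pcyox1, Gatm and Echs1 (0.87, 0.82 and 0.79). Mgst1 was most like Msrb1, a methionine sulfoxide reductase, Ugp2 and Fnip1 (0.91, 0.90 and 0.88), and Mgst2 like Prom1, Ly75 and Cebpe, a factor of granulocyte maturation (0.86, 0.85 and 0.80). Gstp1 had too few naive UMIs for this.

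The 60 other genes of the same chemistry were followed in 5 lists (16 further aldehyde dehydrogenases, 20 further glutathione transferases, 10 genes of glutathione supply, 8 drug exporters and 6 genes of Nrf2 and its targets). In the sum of all cells 18 of the 60 passed the filter at D2 CTX, with 3 past the limit upwards and 2 downwards, where 8.62% of all genes were past it in 1 direction or the other. Slc7a11, the cystine importer that feeds glutathione synthesis, was at 12.8 CPM in naive and 48.3 CPM at D2 CTX, and Hmox1, the heme oxygenase, at 22.3 and 80.9 CPM. Abcc1, an exporter of glutathione conjugates, was at 8.99 and 20.9 CPM. Gstm5 was lower, at 39.2 and 10.7 CPM, and Chac2, which degrades glutathione, at 24.9 and 9.61 CPM. No further aldehyde dehydrogenase of the 2 that passed was past the limit.

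At D7 CTX 16 of the 60 passed and 6 were past the limit, where 23.7% of all genes were. All 6 were lower, as were 1250 of the 1329 genes past the limit. These were Gstm5 (log2 ratio -3.39), Abcg2, an exporter of stem and red-line cells (-2.76), Gclc and Gclm, the subunits of the enzyme that starts glutathione synthesis (-2.69 and -1.04), Gstt2 (-1.60) and Chac2 (-1.53).

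Few of the 60 genes were past the limit within classes at D2 CTX, and in monocytes none of 5 that passed the filter (6.39% of all genes). Those past it were 1 of 7 in GMP (16% of all genes) and 1 of 9 in neutrophil precursors (6.18%). In immature neutrophils they were 2 of 9 (4.98%), in mature neutrophils 1 of 3 (12.3%), in MDP 2 of 8 (4.86%) and in B lineage cells 1 of 12 (13.8%). All were higher, as were most of all genes past the limit in these classes (378 higher and 73 lower in GMP, 215 and 45 in neutrophil precursors, 136 and 40 in immature neutrophils, 159 and 24 in mature neutrophils, 147 and 52 in MDP, 576 and 352 in B lineage cells), so nothing is read from their direction. Slc7a11 was at 220 CPM in naive, 689 CPM at D2 CTX and 101 CPM at D7 CTX in mature neutrophils, and at 39.8 and 81.8 CPM in naive and D2 CTX immature neutrophils. Slc7a11 is also among the markers that named mature neutrophils. Hmox1 was higher at D2 CTX in immature neutrophils (57.6 against 23.6 CPM) and in neutrophil precursors (29.7 against 10.2 CPM). In whole BM monocytes it was at 91.2, 165 and 44.0 CPM in naive, D2 CTX and D7 CTX. It was past the limit at D7 CTX, as 1 of 9 that passed the filter (0.951% of all genes). Txnrd1, a thioredoxin reductase, was higher at D2 CTX in GMP (72.4 against 35.4 CPM) and MDP (65.4 against 29.4 CPM), as was the drug exporter Abcb1b in MDP (70.6 against 20.1 CPM). Aldh7a1 was higher in D2 CTX B lineage cells (25.03 against 10.9 CPM). In sorted monocytes 12 of the 60 passed and none was past the limit, with Hmox1 at 51.1 CPM in naive and 34.8 CPM in CTX.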

How the data were processed

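Single cells of naive and CTX mice were measured, as whole BM (naive, day 2, day 7) and as sorted CD11b+Ly6Chi monocytes, 1 library each. The authors deposited raw UMI counts per gene and barcode from 10x 3′ libraries, made with Cell Ranger 3.1, per the labels and methods, against mm10. The release of the annotation is not given in the sources used here. The deposited counts hold no normalization. Multimapped reads are not counted by that tool, which lowers genes with close copies.

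Cells with at least 200 genes and under 20% mitochondrial UMIs were kept, as in the study's methods. Cells were clustered with Seurat 5.3.0 in R 4.3.3 (2000 variable genes without the members and the 60 pathway genes, 30 components, reciprocal PCA integration, resolution 0.8), separately for whole BM and sorted cells, and clusters were named from marker genes. Doublets were kept in the main values. The cells that Scrublet (scanpy 1.11.5) scored highest, 404, 300, 550, 29 and 53 by library, were left out as an alternative. UMIs were summed per class and library in Python 3.11.15 (numpy 2.4.6, scipy 1.17.1, pandas 2.3.3) and given as CPM with exact Poisson intervals. At 95%, ratios have exact conditional intervals and shares those of Clopper-Pearson. Where no UMI was found, the level of 3 counts is stated. Figures were drawn with matplotlib 3.10.9. On simulated counts for 5513 genes of the D2 CTX over naive comparison, all 200 changed genes were recovered, no other was called and the intervals held the true value in at least 94.1% of draws. The changed genes had high counts, were shifted past the limit and had counting error only. Their recovery thus says nothing of genes with low counts or of spread between libraries.

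The members and lists were chosen with earlier results of these data known, and the rule for named genes was all 9 members, the pathway genes past the limit (at most 6 per comparison) and the 3 genes most like each member. The classical, non-classical and neutrophil lists in monocytes were chosen after their values had been seen. Coordinates are from GENCODE M21 on GRCm38, where all 9 identifiers matched. The alternatives tried (scaling, filters, thinning depth, doublets, clustering settings, paralogs) are given in the closing section.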

Additional observations from a re-analysis of the deposited data

Results flagged for a closer look

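Aldh2 and Mgst1 in whole BM monocytes moved one way at D2 CTX and the other at D7 CTX, which is what put them here. Aldh2 had a log2 ratio over naive of -0.73 at D2 CTX and 0.36 at D7 CTX, and Mgst1 of -1.45 and 0.41. Each value compares 1 pooled library with another and both share the naive library, so the difference between days was not tested.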

How the results depend on the processing

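No paired analysis was possible because each group was 1 library. Of 552 values under alternatives, 453 moved by less than their counting interval, 97 moved further and 2 that were past the limit of 1 log2 unit reversed. With erythroblasts left out, Aldh1a1 at D2 CTX in all cells reversed to 1.18. With no integration, Mgst2 in D2 CTX GMP reversed to 0.11, and of the other members there Aldh9a1 went from 0.50 to -0.10, Aldh3b1 from -0.33 to 0.51, Aldh2 from -0.08 to 0.16 and Mgst1 from -0.82 to -0.06, so GMP values at D2 CTX depend on the clustering. The causes were not tested. The log2 ratio of Gstp1 at D2 CTX was 1.67 with Gstp1, Gstp2 and Gstp3 summed, where Gstp3, itself lower at D2 CTX, shared no 60-base stretch with Gstp1. That of Mgst3 at D2 CTX was -3.28 as a mean of the CPM of single cells, -3.81 with scaling by the median of gene ratios and -0.86 without erythroblasts. Aldh2 at D7 CTX was 1.24, 1.95 and 1.08 under the same settings and 1.71 with the 20 most abundant genes left out of the total. Mgst1 in D2 CTX monocytes was -1.98 with the B lineage level subtracted. With no filter on low counts, 5 members were past the limit in monocytes at D2 CTX and 1 at D7 CTX. The share of all genes past it without the filter is not given, so nothing is read from these counts. Mgst2 in sorted monocytes was 0.62 without the NeuMo-like cluster. The median of gene ratios in all cells stood at 0.20 at D2 CTX and -0.66 at D7 CTX, against which the ratios above can be read. The alternatives that left out erythroblasts, the NeuMo-like cluster or summed paralogs were added after the data were seen. Single libraries, with under 30 cells in several D7 CTX classes, set the limits.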
